A study of Mus musculus with 6 samples.

Results

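The matrix metalloproteinases (MMPs), the ADAMTS proteases (secreted metalloproteinases with thrombospondin motifs) and the tissue inhibitors of metalloproteinases (TIMPs) were examined in whole ovaries of wild type and Bnc1tr/tr mice. Members were the genes of the count table whose symbol was Mmp, Adamts or Timp followed by a number, with a letter allowed after the number of an Mmp. This gave 46 of the 44788 genes listed, of which 23 were MMPs, 19 were ADAMTS proteases and 4 were TIMPs. RNA was sequenced from 3 wild type (Bnc1+/+) and 3 Bnc1tr/tr ovary samples, all from 8-week-old females of the C57BL/6 J strain without any treatment named in the labels. Bnc1tr/tr mice are homozygous for a small deletion in an exon of Bnc1, the gene of the transcription factor basonuclin 1, which shifts the reading frame and brings in an early stop codon. The deletion was carried by every cell of the animal, and the labels name neither a stage of the estrous cycle nor a litter. In a whole ovary, fewer cells of a type and less RNA per cell cannot be told apart.

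MMPs are zinc-dependent enzymes that are made as inactive precursors and cut collagens and other matrix proteins. ADAMTS proteases trim procollagens and cleave large proteoglycans such as versican. TIMPs bind the active site of MMPs and, for Timp3, of some ADAMTS proteases as well. In the ovary these families are known for their part in follicle growth, in the breakdown of the follicle wall at ovulation, and in the building and regression of the corpus luteum.

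The libraries held 25247770 to 34406296 counted reads each. Bnc1 itself was counted at 375, 444 and 381 reads in the wild type ovaries and at 527, 355 and 326 reads in the Bnc1tr/tr ovaries (edgeR's quasi-likelihood test, log2 fold change 0.12, standard error 0.18, adjusted p = 0.733), and a read total over the gene does not show whether the deletion was present. No gene of the oocyte, granulosa, theca or luteal marker lists was without reads. In the luteal cell list 8 of 10 genes fell and none rose, and the summed level was 23411 to 28108 CPM (read counts scaled to the size of the library) in wild type and 7357 to 12733 CPM in Bnc1tr/tr ovaries. This sum rested mostly on Cyp11a1 and Hsd3b1. Cyp11a1 was at 9054 to 10793 CPM in wild type and 1975 to 4823 CPM in Bnc1tr/tr ovaries. Hsd3b1 was at 8044 to 9027 CPM in wild type and 3951 to 5801 CPM in Bnc1tr/tr ovaries. In the endothelial list, 4 of 7 genes fell and 1 rose, with sums of 595 to 735 CPM in wild type and 403 to 479 CPM in Bnc1tr/tr ovaries. The genes that rose numbered 3 of 10 for oocytes, 1 of 10 for granulosa cells, 1 of 8 each for stromal fibroblasts and the surface epithelium, and 1 of 3 tested for neutrophils (Mpo), and no gene passed the test in the theca, smooth muscle, macrophage or oviduct lists. Oviduct markers summed to 529 CPM in Bnc1tr/tr replicate 3 and 147 CPM in wild type replicate 1, against 15.9 to 31.7 CPM in the other 4 ovaries.

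Of the tested members, 5.71% passed the test for a difference between the genotypes, and of all tested genes 7.06% passed. Of the 46 members, 35 had enough reads to be tested, and 2 of them passed the test, the membrane-type protease gene Mmp15 and the collagenase gene Mmp13, both lower in Bnc1tr/tr ovaries. Mmp13 had 5 or 6 reads in each Bnc1tr/tr ovary and entered the test only through the wild type ovaries, so its call supports no count of members. No member rose. The remaining 33 tested members did not pass, which does not show that they were equal.

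The comparison was made with edgeR's quasi-likelihood test across 19423 genes, with two-sided p-values adjusted by the Benjamini-Hochberg method and a threshold of 0.05. The 2 calls were 5.71% of the tested members, and 7.06% of all tested genes were called in either direction (2.88% higher and 4.19% lower). No reading is drawn from these shares, because Mmp13 is 1 of the 2 calls and entered the test only through the wild type ovaries. Mmp13 was also not called with no filter (edgeR adjusted p = 0.0772), with DESeq2 (adjusted p = 0.14) or with limma-voom (adjusted p = 0.0527). At an unadjusted p under 0.05 there were 6 members, 1 of them higher, where 24.2% of all tested genes passed. In 7 of the 35 tested members (20.0%) the 3 Bnc1tr/tr ovaries lay wholly above or below the 3 wild type ovaries, against 30.8% of all tested genes. The 6 members under the unadjusted threshold and the 7 without overlap both include Mmp13. The median log2 fold change (Bnc1tr/tr minus wild type) was -0.068 for the tested members and 0.018 for all tested genes, and the median absolute value was 0.199 and 0.210. With other tools and settings the number of members called higher was 0 or 1 and the number called lower was 0 to 3. Without wild type replicate 4, no member was called by edgeR, and the count over all genes was 320 in place of 1372. That count was 781 without wild type replicate 1, 518 without wild type replicate 7 and 634 without Bnc1tr/tr replicate 3.

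**Figure D1:**
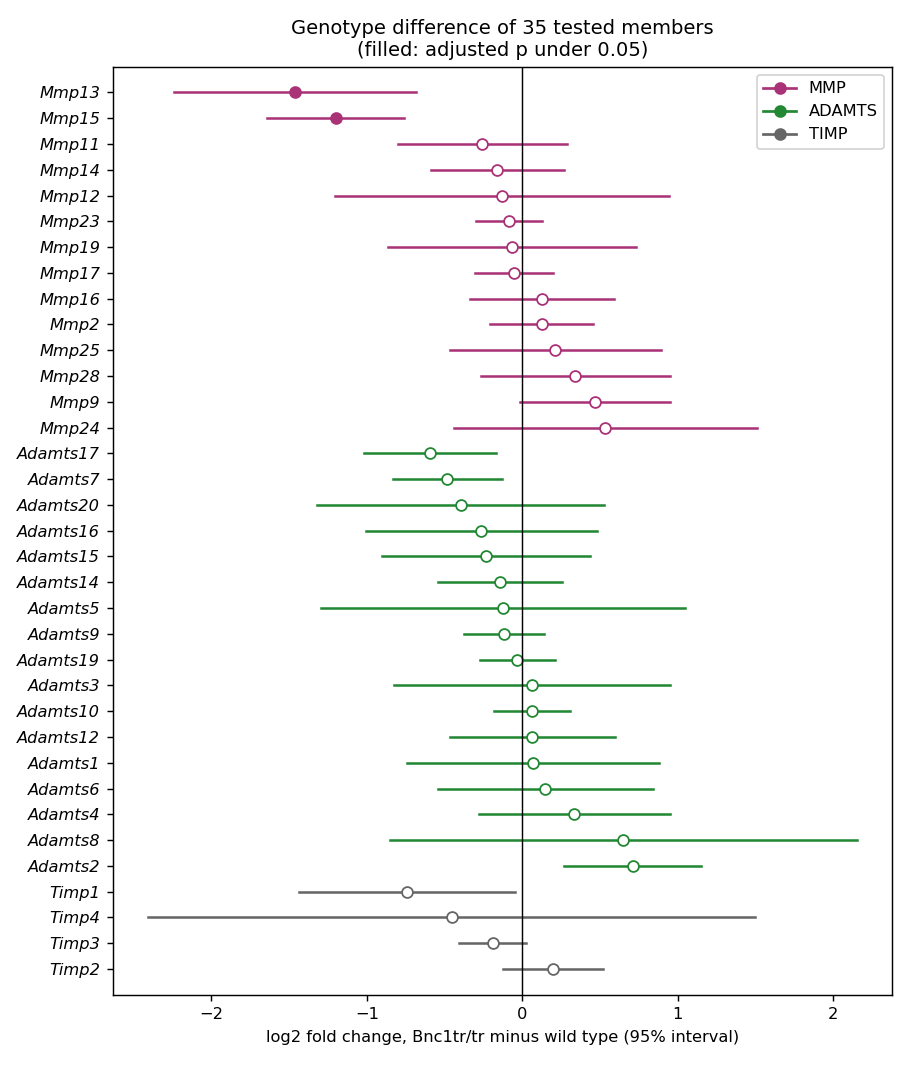
Log2 fold change of each of the 35 tested members (x axis, Bnc1tr/tr minus wild type) with its 95% interval, 3 ovaries per genotype, grouped by family. Filled points are the 2 members with an adjusted p under 0.05, Mmp13 at -1.46 and Mmp15 at -1.20, and open points are the other 33.

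To compare levels between genes, CPM were divided by the exon length of the gene in kilobases. On this scale Mmp11 (stromelysin 3, a secreted protease known from remodelling stroma) and Timp1 were the highest members, with means over the 6 ovaries of 109.96 and 109 CPM per kilobase. Timp2 followed at 75.5, Mmp2 (gelatinase A) at 47.9, Mmp23 at 34.6, Adamts2 (a procollagen N-proteinase) at 33.6, Timp3 at 29.9, Adamts10 at 29.5 and Mmp14 at 23.8 CPM per kilobase. Neighbours in this order, such as Mmp11 with Timp1 or Adamts2 with Timp3 and Adamts10, overlapped in their values over the ovaries. At the other end, Mmp1a had no read in any ovary, and Mmp1b, Mmp20 and Mmp21 had at most 2, 1 and 1 reads.

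**Figure D2:**
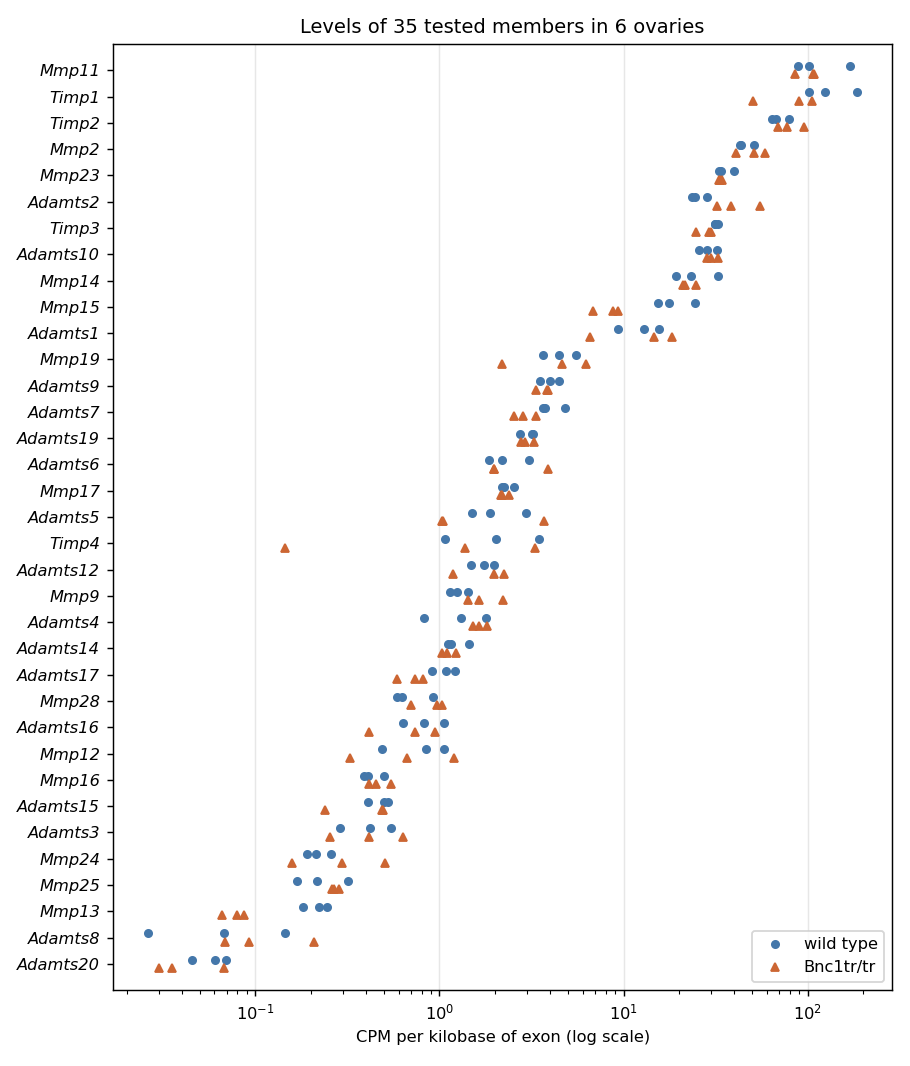
CPM per kilobase of exon (x axis, log scale) of the 35 tested members, with a point for each of 3 wild type ovaries (circles) and 3 Bnc1tr/tr ovaries (triangles). Levels run from under 0.1 for Adamts20 to over 100 for Mmp11 and Timp1, and 1 Bnc1tr/tr ovary stands far below the rest for Timp4.

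The low members were mostly neighbours in the genome. In GRCm38 with the GENCODE M21 annotation, 10 MMP genes (Mmp13, Mmp12, Mmp1b, Mmp3, Mmp1a, Mmp10, Mmp8, Mmp27, Mmp20 and Mmp7) lie side by side on chromosome 9 within 427072 bases, from the start of Mmp13 at 7272514 to the end of Mmp7 at 7699585. The highest read count reached by any of these genes in any ovary was 253, for Mmp12, and the median of their highest counts was 17.5 reads. For the 13 MMP genes outside the cluster the median of the highest counts was 488 reads and the largest was 13624, for Mmp11. Of the cluster genes, Mmp12 and Mmp13 had enough reads for the test.

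**Figure D3:**
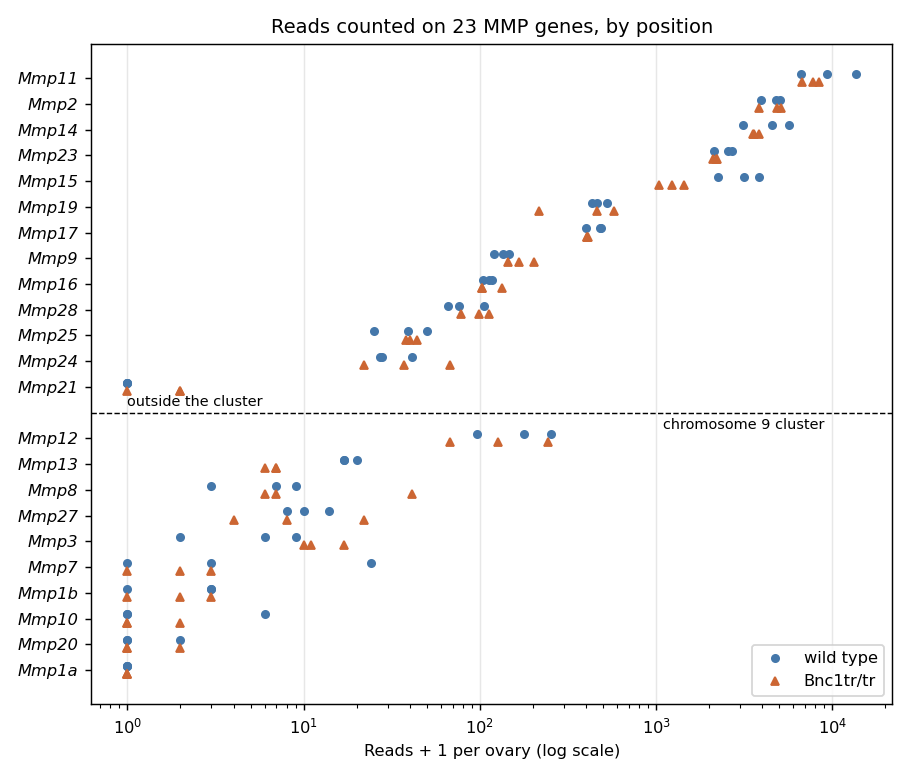
Reads counted per ovary plus 1 (x axis, log scale) on each of the 23 MMP genes, with circles for 3 wild type and triangles for 3 Bnc1tr/tr ovaries. The 10 genes of the chromosome 9 cluster lie below the dashed line and reach at most 253 reads, while outside the cluster only Mmp21 stays under 10 reads in each ovary.

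The promoters of the cluster genes also differed in sequence from those of the other members. The 250 bases before the RefSeq start of the gene (GRCm38.p6) were given for 32 of the 46 members, and the first start was used for the 3 members with more than 1. They are shown for the 2 members that passed the test, each beside a member of its own kind of promoter that did not pass or was not tested, with motif matches in capitals. The windows are chr9:7272264-7272513 for Mmp13, chr9:7445572-7445821 for Mmp3 (stromelysin 1), chr8:95352046-95352295 for Mmp15 and chr14:54431348-54431597 for Mmp14, all on the plus strand and written 5′ to 3′.
Mmp13: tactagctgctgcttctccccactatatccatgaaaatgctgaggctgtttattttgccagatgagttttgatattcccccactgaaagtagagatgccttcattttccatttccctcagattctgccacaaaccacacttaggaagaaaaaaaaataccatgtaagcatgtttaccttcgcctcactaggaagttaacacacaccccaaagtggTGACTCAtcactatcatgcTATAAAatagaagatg
Mmp3: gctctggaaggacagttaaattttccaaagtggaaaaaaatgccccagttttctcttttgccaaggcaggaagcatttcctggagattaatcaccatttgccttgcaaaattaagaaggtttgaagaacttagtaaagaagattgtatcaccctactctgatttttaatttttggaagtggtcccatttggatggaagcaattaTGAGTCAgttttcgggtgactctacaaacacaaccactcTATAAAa
Mmp15: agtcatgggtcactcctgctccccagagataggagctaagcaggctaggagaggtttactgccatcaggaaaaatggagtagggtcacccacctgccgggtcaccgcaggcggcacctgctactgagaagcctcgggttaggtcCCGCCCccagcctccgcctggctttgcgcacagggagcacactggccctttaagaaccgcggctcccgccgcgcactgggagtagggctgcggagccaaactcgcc
Mmp14: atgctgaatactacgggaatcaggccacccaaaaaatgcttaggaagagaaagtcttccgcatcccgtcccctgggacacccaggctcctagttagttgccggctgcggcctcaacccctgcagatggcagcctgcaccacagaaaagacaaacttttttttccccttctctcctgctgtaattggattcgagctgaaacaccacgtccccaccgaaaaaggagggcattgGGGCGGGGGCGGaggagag
Capitals mark TGANTCA (the core letters bound by AP-1, a factor known to control secreted MMP genes), TATAAA (the TATA box) and GGGCGG (the GC box bound by Sp1), each searched on both strands, and in Mmp14 a pair of GC boxes abut. Counting the last base before the start as -1, the AP-1 letters of Mmp13 begin at -35 and its TATA box at -16, and those of Mmp3 at -46 and -7. The GC box of Mmp15 lies on the minus strand from -106 to -101. A match to these letters is a description of the sequence and does not show that a factor binds there.

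Of the 10 cluster promoters, 7 held TGANTCA, 7 held TATAAA and none held GGGCGG. Of 8 promoters of other MMP genes, none held TGANTCA, 1 held TATAAA (Mmp21) and 6 held GGGCGG. These letters were found in 6.87%, 13.0% and 32.9% of 27025 gene promoters of the same length. AGGTCA, the core letters of nuclear receptor sites, were found in 3 cluster promoters (Mmp1a, Mmp1b and Mmp10) and in no other first promoter of a member, against 13.8% of all gene promoters. These counts leave out the second start of Mmp12, which held TGANTCA from -44 to -38 and AGGTCA on the minus strand from -99 to -94. The GC content was 37.2% to 45.6% in the cluster and 53.6% to 79.2% in the other MMP promoters. The same kind of promoter, with GC boxes and no AP-1 letters, was held by Mmp15, which fell, and by Mmp14, which did not pass the test. Likewise, AP-1 letters and a TATA box were shared by Mmp13 and by cluster genes at or near 0 reads. Whether promoter sequence bears on the level or the genotype difference of a member was not tested.

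Membrane-type MMPs are anchored in the cell membrane and work at the cell surface. Of the 6 members, Mmp15 fell and the other 5 did not pass the test. Mmp15 encodes MT2-MMP, a transmembrane collagenase and activator of Mmp2, and lies on chromosome 8 from 95352268 to 95375080. It was counted at 83.1, 94.99 and 132 CPM in wild type replicates 1, 4 and 7, and at 36.9, 47.3 and 50.5 CPM in Bnc1tr/tr replicates 1, 2 and 3. Each Bnc1tr/tr ovary was therefore below each wild type ovary, and wild type replicate 7 stood highest. Mean levels were 103 ± 25.3 CPM in wild type and 44.9 ± 7.14 CPM in Bnc1tr/tr ovaries (SD, n = 3), and the log2 fold change was -1.20 (standard error 0.19, 95% interval -1.64 to -0.76, edgeR adjusted p = 0.0119). Mmp15 passed under 13 of 14 alternatives of scaling, filter, tool or ovaries, with log2 fold changes from -1.44 to -0.996, and missed the threshold without wild type replicate 4 (edgeR adjusted p = 0.0579). It also passed without the pair of ovaries highest in oviduct markers. The luteal and endothelial marker sums were lower in the same ovaries as Mmp15, and their part in its fall was not tested.

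Mmp14, which encodes the related transmembrane protease MT1-MMP, known as the main activator of Mmp2, was the highest of the class. It was at 115, 138 and 195 CPM in wild type and at 128, 148 and 125 CPM in Bnc1tr/tr ovaries. The groups overlapped, and the log2 fold change was -0.16 (95% interval -0.59 to 0.26, edgeR adjusted p = 0.635). The lower bound of this interval is above the estimate for Mmp15, but the difference between the genes was not itself tested. Mmp17, which is held by a lipid anchor, ranged from 14.3 to 16.8 CPM over the 6 ovaries with a log2 fold change of -0.055 (95% interval -0.31 to 0.20). Mmp16, Mmp24 and Mmp25 had means of 3.75, 1.04 and 1.24 CPM in wild type and 4.08, 1.503 and 1.44 CPM in Bnc1tr/tr ovaries, with overlapping groups. The reads of Mmp24 (21 to 67 per ovary) are uncertain, because 637 of its exon bases are shared with BC029722 on the opposite strand, which had 871 to 1647 reads, and the sources used here do not say whether strand was used in counting.

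The interstitial collagenases cut intact fibrillar collagen. Mmp13, which encodes collagenase 3 and lies on chromosome 9 from 7272514 to 7283331, was the only 1 of 4 that could be tested. It had 16, 16 and 19 reads in wild type and 6, 6 and 5 reads in Bnc1tr/tr ovaries. In CPM these were 0.595, 0.483 and 0.655 against 0.213, 0.231 and 0.176, so the groups did not overlap. The log2 fold change was -1.46 (standard error 0.33, 95% interval -2.24 to -0.69, edgeR adjusted p = 0.0427). Mmp13 passed the filter of 0.361 CPM through the 3 wild type ovaries, while no Bnc1tr/tr ovary reached it, so that it entered the test only because it was higher in wild type. It passed under 3 of 13 alternatives, and its adjusted p over these ranged from 0.0424 to 0.252. Leaving out any 1 ovary left it short of the threshold, at an edgeR adjusted p of 0.0787 (without Bnc1tr/tr replicate 2) to 0.151 (without wild type replicate 7).

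Mmp8, the collagenase known from neutrophils, had 8, 6 and 2 reads in wild type and 6, 5 and 40 reads in Bnc1tr/tr ovaries, and so was high in Bnc1tr/tr replicate 3 alone. In that ovary the 8 neutrophil markers summed to 39.7 CPM, against 4.89 to 13.8 CPM in the others, but Ltf, which epithelia also express, made up 33.6 CPM of it. The neutrophil markers Elane and Ly6g had 0 reads in each ovary, Retnlg at most 2 and S100a8 at most 4. Mpo had 10, 6 and 4 reads in wild type and 130, 74 and 144 reads in Bnc1tr/tr ovaries. Camp had 18, 1 and 0 reads against 1, 18 and 16, and S100a9 had 8, 16 and 19 against 3, 9 and 9. Bnc1tr/tr replicate 3 also had the highest oviduct marker sum. The part of neutrophils or of oviduct in the Mmp8 reads was not tested. Mmp1a and Mmp1b, the mouse relatives of the human interstitial collagenase gene, had 0 and at most 2 reads.

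**Figure D4:**
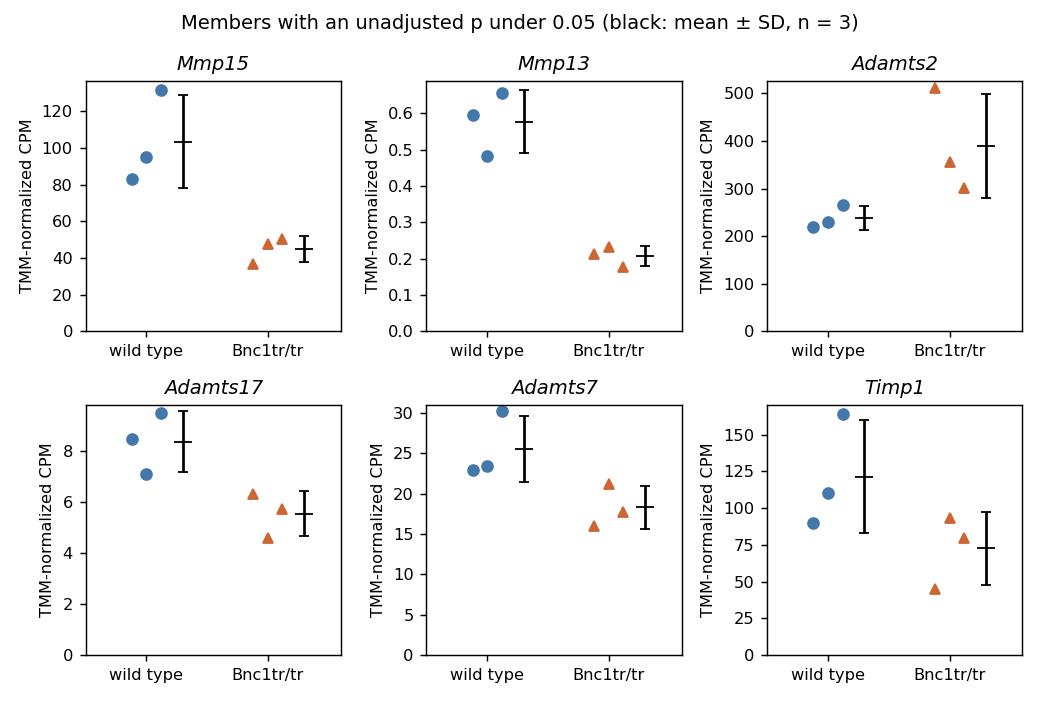
TMM-normalized CPM (y axes, starting at 0) in each of 3 wild type (circles) and 3 Bnc1tr/tr ovaries (triangles), with the mean ± SD in black, for the 6 members with an unadjusted p under 0.05. The genotypes do not overlap for any of these but Timp1, and only Mmp15 and Mmp13 passed the threshold on the adjusted p.

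The gelatinases Mmp2 and Mmp9 degrade denatured collagen and the collagen of basement membranes, such as that between granulosa and theca cells. Mmp2 was at 146, 145 and 173 CPM in wild type and at 137, 197 and 172 CPM in Bnc1tr/tr ovaries, with a log2 fold change of 0.12 (95% interval -0.21 to 0.46, edgeR adjusted p = 0.640). Its groups overlapped, with the lowest and the highest value both in Bnc1tr/tr ovaries. Mmp9 was less abundant, at 4.42, 4.05 and 5.04 CPM in wild type and 5.09, 7.81 and 5.82 CPM in Bnc1tr/tr ovaries. The groups of Mmp9 were apart by a narrow margin, and its log2 fold change was 0.47 (95% interval -0.012 to 0.95, edgeR adjusted p = 0.216).

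Of the stromelysins and matrilysin, Mmp11 alone could be tested. It was at 245, 282 and 470 CPM in wild type and at 301, 297 and 237 CPM in Bnc1tr/tr ovaries, and the high value of wild type replicate 7 made the wild type group wider than the difference between the genotypes (log2 fold change -0.26, 95% interval -0.80 to 0.29, edgeR adjusted p = 0.553). Mmp3 had 8, 5 and 1 reads in wild type and 10, 16 and 9 reads in Bnc1tr/tr ovaries, too few for the test. Mmp10 had at most 5 reads. Mmp7 (matrilysin, known from epithelia) had 23 reads in wild type replicate 7 and at most 2 in any other ovary, and the source of these reads was not tested.

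Among the other MMPs, Mmp19, which is known in follicles and corpora lutea, was at 19.6, 13.0 and 15.8 CPM in wild type and at 7.68, 22.1 and 16.4 CPM in Bnc1tr/tr ovaries. The groups overlapped, with the lowest and highest values both in Bnc1tr/tr ovaries (log2 fold change -0.068, 95% interval -0.86 to 0.73, edgeR adjusted p = 0.928). Mmp19 shares 789 exon bases with Tmem198b on the opposite strand, so its level is uncertain in the same way as that of Mmp24. Mmp23, one of the more abundant members, ranged only from 77.3 to 92.9 CPM, and its log2 fold change was -0.083 (95% interval -0.29 to 0.13). Mmp12, the elastase of macrophages, ranged from 3.53 to 7.64 CPM in wild type and from 2.36 to 8.68 CPM in Bnc1tr/tr ovaries, and Mmp28 (epilysin) from 2.27 to 3.59 and from 2.71 to 3.98 CPM. Mmp27 had 3 to 21 reads per ovary and was not tested.

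Of the 19 ADAMTS proteases, 17 were tested and none passed. By edgeR, 3 of them had an unadjusted p under 0.05 (Adamts2, Adamts17 and Adamts7), limma-voom also called none, and DESeq2 called these 3, Adamts2 as higher and the others as lower.

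Adamts2, Adamts3 and Adamts14 remove the amino-terminal propeptide of fibrillar procollagens. Adamts2, on chromosome 11 from 50602084 to 50807573, was at 220, 229 and 266 CPM in wild type and at 511, 356 and 302 CPM in Bnc1tr/tr ovaries. Each Bnc1tr/tr ovary was above each wild type ovary, and replicate 1 was far above the rest. The means were 238 ± 24.6 and 390 ± 109 CPM (SD, n = 3), with 0.71 as the log2 fold change (standard error 0.19, 95% interval 0.27 to 1.15, edgeR adjusted p = 0.0659). Over 14 alternatives its log2 fold change stayed positive, between 0.46 and 0.86, and its adjusted p ranged from 0.00358 to 0.220, passing under 4 of them (library size as the only scaling, no filter, DESeq2, and without Bnc1tr/tr replicate 3). Adamts3 and Adamts14 were far lower, with means of 2.27 and 6.42 CPM in wild type and 2.37 and 5.81 CPM in Bnc1tr/tr ovaries, and their groups overlapped.

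Adamts7 and Adamts12 cleave cartilage oligomeric matrix protein. Adamts7 was at 22.9, 23.4 and 30.3 CPM in wild type and at 15.97, 21.1 and 17.8 CPM in Bnc1tr/tr ovaries, with no overlap (log2 fold change -0.48, 95% interval -0.83 to -0.13, edgeR adjusted p = 0.102). Adamts12 overlapped, at 16.2 to 21.6 and 13.0 to 24.6 CPM. Adamts17, a protease known for its link to fibrillin and short stature, was at 8.48, 7.10 and 9.48 CPM in wild type and at 6.30, 4.58 and 5.71 CPM in Bnc1tr/tr ovaries. It too did not overlap and did not pass the test (log2 fold change -0.59, 95% interval -1.02 to -0.17, edgeR adjusted p = 0.0971). Adamts7 and Adamts17 each passed under 1 of 14 alternatives, DESeq2.

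The proteoglycan-cleaving members act on versican and related molecules, and Adamts1 is known as a progesterone-induced gene of ovulating follicles. None of the 7 passed, and their median log2 fold change was -0.12. Adamts1 was at 82.1, 49.6 and 68.6 CPM in wild type and at 34.7, 77.8 and 97.5 CPM in Bnc1tr/tr ovaries. Adamts5 was at 20.2, 16.3 and 31.7 CPM in wild type and at 39.9, 11.2 and 11.3 CPM in Bnc1tr/tr ovaries. These neighbours on chromosome 16 (85793827 to 85803113 and 85856173 to 85901828) went opposite ways in Bnc1tr/tr replicate 1, where Adamts1 had its lowest and Adamts5 its highest value of the 6 ovaries. With replicates this far apart, the log2 fold changes were 0.069 for Adamts1 (95% interval -0.74 to 0.88, edgeR adjusted p = 0.928) and -0.13 for Adamts5 (95% interval -1.30 to 1.05, edgeR adjusted p = 0.909), and both changed sign under some alternatives.

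Adamts4 was at 3.98, 6.28 and 8.62 CPM in wild type and at 7.86, 7.31 and 8.67 CPM in Bnc1tr/tr ovaries (log2 fold change 0.34, 95% interval -0.28 to 0.95, edgeR adjusted p = 0.485). Adamts9 was at 60.1, 53.0 and 67.2 CPM in wild type and at 50.04, 57.5 and 58.2 CPM in Bnc1tr/tr ovaries (log2 fold change -0.12, 95% interval -0.38 to 0.14, edgeR adjusted p = 0.556). The groups overlapped for both, and the interval of Adamts9 was among the narrower ones. Adamts9 shares 1381 exon bases with A730049H05Rik on the opposite strand, which had 296 to 1075 reads beside its own 1407 to 1947. Adamts15 ranged from 2.49 to 5.41 CPM, and Adamts8 and Adamts20 stayed under 1 CPM in each ovary.

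Of the other ADAMTS members, Adamts10 and Adamts6 are close relatives known for their link to fibrillin fibres. Adamts10 was at 213 to 266 CPM in wild type and 234 to 267 CPM in Bnc1tr/tr ovaries, with a log2 fold change of 0.062 (95% interval -0.18 to 0.31). Adamts6 was at 17.0, 14.6 and 23.8 CPM in wild type and at 30.4, 15.4 and 15.5 CPM in Bnc1tr/tr ovaries, and like Adamts5 was highest in Bnc1tr/tr replicate 1. Adamts19 ranged from 38.4 to 45.9 CPM with a log2 fold change of -0.031 (95% interval -0.27 to 0.21), and Adamts16 from 2.85 to 7.24 CPM. Adamts13, the von Willebrand factor protease, and Adamts18 had at most 7 and 11 reads and were not tested.

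None of the 4 TIMPs passed the test, and Timp1 had the largest estimate. Timp1, on the X chromosome from 20870166 to 20874735, encodes the inhibitor that gonadotropins are known to induce in granulosa cells. It was at 90.1, 110 and 165 CPM in wild type and at 44.7, 93.3 and 79.8 CPM in Bnc1tr/tr ovaries, so the groups overlapped at wild type replicate 1 and Bnc1tr/tr replicate 2. The log2 fold change was -0.74 (standard error 0.30, 95% interval -1.44 to -0.050, edgeR adjusted p = 0.180), and it stayed short of the threshold under each of 14 alternatives (adjusted p from 0.0556 to 0.451). The luteal marker sum was lower in the Bnc1tr/tr ovaries, lowest in replicate 1 where Timp1 was lowest too, and its part in the Timp1 values was not tested.

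Timp2, known for helping Mmp14 activate Mmp2, was at 262, 250 and 309 CPM in wild type and at 301, 372 and 270 CPM in Bnc1tr/tr ovaries (log2 fold change 0.20, 95% interval -0.12 to 0.52, edgeR adjusted p = 0.428). Timp3, the matrix-bound inhibitor, was at 256, 267 and 255 CPM in wild type and at 244, 236 and 203 CPM in Bnc1tr/tr ovaries. Timp3 did not overlap but differed by little (log2 fold change -0.19, 95% interval -0.41 to 0.026, edgeR adjusted p = 0.258). Timp4 varied more than any other tested member. It was at 20.6, 12.02 and 6.31 CPM in wild type and at 0.854, 8.08 and 19.4 CPM in Bnc1tr/tr ovaries, a 24.1-fold range. The 24 reads of Bnc1tr/tr replicate 1 set it apart from the 183 to 553 reads of the other ovaries, and the genotype interval was correspondingly wide (log2 fold change -0.45, 95% interval -2.41 to 1.496, edgeR adjusted p = 0.782). Timp1, Timp3 and Timp4 overlap synapsin genes on the opposite strand, where Timp3 shares 1733 exon bases with Syn3, which had 48 to 105 reads, and Timp4 90 bases with Syn2, which had 68 to 104 reads.

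Summed over each family in CPM per kilobase, MMPs gave 257 ± 63.6 in wild type and 226 ± 19.1 in Bnc1tr/tr ovaries (SD, n = 3). ADAMTS proteases gave 89.8 ± 9.69 and 106 ± 8.40, and TIMPs 241 ± 49.3 and 192 ± 36.8 (SD, n = 3). The groups overlapped in the MMP and TIMP sums. For the ADAMTS sum, which Adamts2 and Adamts10 dominate, they almost met, with 82.3 to 100.7 in wild type and 100.8 to 116 in Bnc1tr/tr ovaries. As shares of the 3 families together, TIMPs held 40.5% to 41.8% in wild type and 31.9% to 39.8% in Bnc1tr/tr ovaries, ADAMTS proteases 13.8% to 17.2% and 17.6% to 23.5%, and MMPs 42.2% to 45.3% and 42.3% to 44.6%. The ratio of the MMP to the TIMP sum was 1.04, 1.03 and 1.11 in wild type and 1.397, 1.07 and 1.13 in Bnc1tr/tr ovaries, again with Bnc1tr/tr replicate 1 at the edge. These sums rest on few genes and were not tested.

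Variation between ovaries of the same genotype was wider for these families than for the typical gene. The median SD of log2 CPM over the tested members was 0.203 in wild type and 0.260 in Bnc1tr/tr ovaries, against 0.136 and 0.172 over all tested genes. Wild type replicate 7 had the highest value of the 6 ovaries for 15 of the 35 tested members and the lowest for none, where it was highest for 17.9% and lowest for 18.6% of all tested genes. Bnc1tr/tr replicate 1 had the lowest value for 12 members, among them Timp1, Timp4, Adamts1, Adamts15, Adamts16 and Mmp19, and the highest for 8, among them Adamts2, Adamts5, Adamts6 and Mmp12, and was lowest for 24.6% and highest for 24.9% of all tested genes. That ovary also had the lowest luteal sum, 7357 CPM, and the highest granulosa marker sum, 7199 CPM, and the part of either in these values was not tested.

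**Figure D5:**
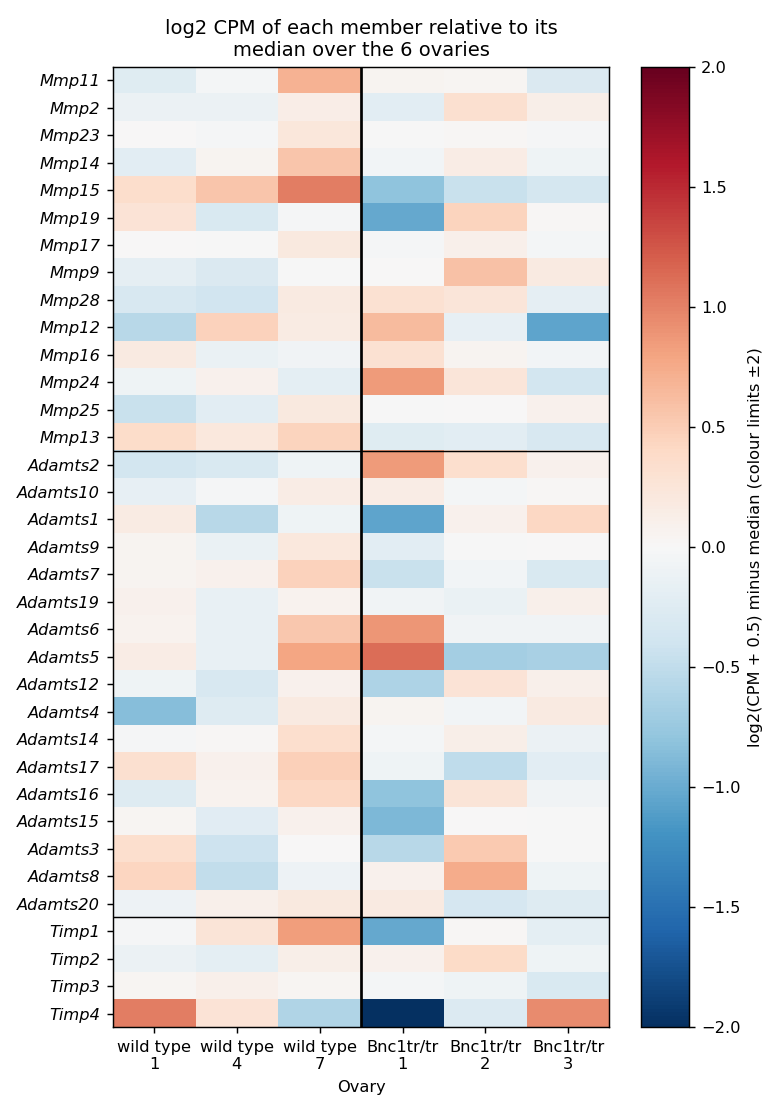
Colour shows log2(CPM + 0.5) of each of the 35 tested members (rows, by family) in each of the 6 ovaries (columns), relative to the member's median over the ovaries, with colour limits at ±2. Timp4 is far below its median in Bnc1tr/tr replicate 1, which holds the lowest value for 12 members, and wild type replicate 7 holds the highest value for 15.

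Beyond these families, 89 genes of 7 lists of matrix remodelling were examined, of which 79 were tested. Of these 79, 4 rose and 4 fell in Bnc1tr/tr ovaries, 10.1% of those tested, where 7.06% of all genes were called, and the median log2 fold change was 0.014 against 0.018 for all genes. The lists were chosen with earlier results of these data known, so no reading is drawn from the difference in share. The 8 calls became 5, 2, 2 and 4 without wild type replicates 1, 4 or 7 or Bnc1tr/tr replicate 3, and 21 with DESeq2. The plasminogen activator system (8 tested) and the cathepsins (10 tested) held no gene that passed.

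The largest falls were those of A2m and Tll2. A2m, which encodes the protease trap alpha-2-macroglobulin and was the only 1 of 14 tested inhibitors and activators to pass, was at 15.7, 21.5 and 17.1 CPM in wild type and at 2.70, 1.81 and 2.82 CPM in Bnc1tr/tr ovaries (log2 fold change -2.88, standard error 0.21, edgeR adjusted p = 0.00096). Tll2, which encodes a protease of the tolloid family, was at 10.4, 15.9 and 25.3 CPM in wild type and at 2.56, 1.69 and 2.40 CPM in Bnc1tr/tr ovaries (log2 fold change -2.95, standard error 0.34, edgeR adjusted p = 0.0043). For both genes every Bnc1tr/tr ovary was far below every wild type ovary, and both passed under each of 14 alternatives. In the list of procollagen processing (10 tested), Loxl2, a collagen cross-linking oxidase, fell as well, from 145 ± 21.1 to 92.0 ± 10.9 CPM (SD, n = 3, log2 fold change -0.66, edgeR adjusted p = 0.0304).

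Of the 6 tested genes of ADAMTS-like proteins, which resemble ADAMTS proteases but lack the catalytic domain, Adamtsl1 and Adamtsl2 rose. Adamtsl2, known as a binder of fibrillin, was at 23.6, 25.9 and 24.8 CPM in wild type and at 32.8, 46.0 and 43.0 CPM in Bnc1tr/tr ovaries (log2 fold change 0.71, edgeR adjusted p = 0.0227). Adamtsl1 was at 13.9, 12.9 and 15.9 CPM against 27.4, 22.5 and 19.6 CPM (log2 fold change 0.70, edgeR adjusted p = 0.0344). Among 10 ADAM genes, the sheddase gene Adam19 fell (log2 fold change -0.52, edgeR adjusted p = 0.0204) and Adam23, whose product lacks protease activity, rose (0.85, edgeR adjusted p = 0.0386). Among 21 tested genes of the proteoglycan and hyaluronan matrix, Bcan (brevican, a substrate of Adamts4 and Adamts5) rose from 29.7 ± 1.95 to 44.6 ± 3.28 CPM (SD, n = 3, log2 fold change 0.58, edgeR adjusted p = 0.0132). The 6 called genes other than A2m and Tll2 each passed under 7 to 11 of the 14 alternatives.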

How the data were processed

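The authors extracted total RNA with TRIzol and sequenced single-end libraries on the Ion Proton platform. They deposited raw read counts per gene and ovary, listed by symbol. The submitters' processing notes name the builds mm10 and Sscrofa10.2 without a role, and the aligner, the counting tool and its use of strand are not given in the sources used here. Totals were 25247770 to 34406296 counts per ovary, whose number limits the precision of low genes. Ovaries were grouped by the genotype in the labels, and no ovaries of a genotype were alike within counting error (chi-square per degree of freedom 15.6 to 58.5).

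Genes were filtered with filterByExpr (minimum count 10, which kept 19423 of 31717 genes with a read), scaled by TMM factors, and the genotypes were compared by the quasi-likelihood test of edgeR 4.0.16 in R 4.3.3. Standard errors came from the fold change and the F statistic, and 95% intervals from the total degrees of freedom of the fit. CPM are TMM-normalized. Exon lengths and positions came from GENCODE M21 (GRCm38) and promoters from RefSeq (GRCm38.p6). Named were the members that passed, those of at least 1 CPM without overlap between the genotypes, and those with a textbook role in ovulation or luteal tissue, and, of the matrix lists, the genes that passed. The members and lists were chosen with earlier results of these data known. The list gene Adgre1 was matched by its older symbol. Alternatives used DESeq2 1.42.0, limma 3.58.1 (voom), a robust fit, other scalings, filters and thresholds, and fewer ovaries. The fit was tested on simulated data. P-values measure the spread between these samples, which the labels do not tie to separate litters.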

Additional observations from a re-analysis of the deposited data

How the results depend on the processing

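Fitted with DESeq2 size factors or robustly, edgeR called the same members, Mmp13 and Mmp15. The 1372 calls over all genes became 2420 with DESeq2, 648 with an absolute log2 fold change over 1, 304 without wild type replicate 1 and Bnc1tr/tr replicate 3, and 320 to 1282 when 1 ovary was left out. Members called higher numbered 0 with TMM and edgeR, and 1 (Adamts2) with library size alone, no filter and DESeq2, and 0 to 1 when 1 ovary was left out (1 without Bnc1tr/tr replicate 3). By unadjusted p, 1 member was higher. Members called lower numbered 2, and 1 (Mmp15) with no filter, with at least 10 counts in every ovary, with limma-voom and without both oviduct-rich ovaries, 3 with DESeq2 (Mmp15, Adamts7 and Adamts17, without Mmp13), and 0 to 1 when 1 ovary was left out (0 without wild type replicate 4). The 8 calls in the matrix lists became 13 with library size alone and with no filter, 21 with DESeq2, 2 with an absolute log2 fold change over 1, 2 without both oviduct-rich ovaries, and 2 to 11 when 1 ovary was left out (2 without wild type replicate 4 or 7). Library size alone moved the median log2 fold change of all genes from 0.018 to 0.12.

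Signs turned for members that had not passed. Adamts1 (0.069) was at -0.025 with limma-voom and -0.078 without both oviduct-rich ovaries, and ranged from -0.25 to 0.39 when 1 ovary was left out. Adamts5 (-0.13) was at 0.081 without both oviduct-rich ovaries and ranged from -1.01 to 0.18 when 1 ovary was left out. Mmp19 (-0.068) was at 0.032 with library size alone and 0.042 without both oviduct-rich ovaries, and ranged from -0.42 to 0.25. Mmp14 ranged from -0.33 to 0.068, Mmp2 from -0.0057 to 0.25 and Timp4 from -1.54 to 0.088 when 1 ovary was left out. The cause was not tested.

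The paper states that its comparisons were between littermates, but the labels tie no ovaries to a litter and the genotypes share only replicate number 1. No paired analysis was therefore possible, and any relation between these ovaries was left out of the test.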
